A study of Mus musculus with 7 samples.

Results

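The trypsinogen genes Prss1, Prss2, Prss3, Try4, Try5 and Try10 and the gene of their inhibitor, Spink1, were followed in E15.5 mouse embryonic pancreas. The members were the rows whose Ensembl identifiers carry these 7 symbols, and all 7 were found among the 27138 features of the deposited table of raw read counts. The 3 cKO embryos carried Pdx1-Cre and floxed alleles (mLINC00673 fl/fl) of 2610035D17Rik, the counterpart in mice of LINC00673, a human long non-coding RNA gene, and the 4 WT embryos carried the same floxed alleles without Cre. Pdx1-Cre recombines in the pancreatic epithelium, whereas the RNA came from the whole dissected organ with its other cells. Each library came from its own animal, and polyadenylated RNA was sequenced. The comparison asked whether the deletion was accompanied by a different level of digestive protease or inhibitor transcripts.

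Trypsinogens are inactive precursors of trypsin that acinar cells, the exocrine cells of the pancreas, store in zymogen granules and secrete. In the duodenum enteropeptidase removes a short activation peptide, and active trypsin then activates the other digestive zymogens. Spink1, a small Kazal-type inhibitor made by the same acinar cells, blocks trypsin that becomes active too early, inside the gland. In humans, variants of PRSS1 and SPINK1 are linked to pancreatitis, and mice without the inhibitor gene lose their acinar cells after birth.

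The mouse trypsinogen copies lie within the T cell receptor beta locus on chromosome 6. In the GENCODE M21 annotation 57 genes ran from the outermost trypsinogen-like gene to the last one, Prss2, and 33 of them were T cell receptor beta segments. Try4, Try5, Try10 and Prss3 followed these segments, then Gm5771, Gm5409 and Gm10334, then Prss1 and, last, Prss2. Try5 and Prss3 were annotated on the minus strand and the other 4 members on the plus strand.

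The upstream sequences of 4 copies, from RefSeq on GRCm38.p6, are shown because all 6 copies followed a similar order of libraries, and these 4 are the copies with an entry in the promoter table used. Each run covers the 250 bases before the annotated start, 5′ to 3′ on the gene's strand. Capitals mark CACCTG (a form of the E-box CANNTG) and TTTCCC, each searched on both strands so that CAGGTG and GGGAAA also count, and TATAAA, searched on the printed strand. The windows lie at chr6:41458680-41458929 (plus strand) for Prss1, chr6:41302022-41302271 (plus strand) for Try4, chr6:41377614-41377863 (minus strand) for Prss3 and chr6:41521526-41521775 (plus strand) for Prss2.
Prss1: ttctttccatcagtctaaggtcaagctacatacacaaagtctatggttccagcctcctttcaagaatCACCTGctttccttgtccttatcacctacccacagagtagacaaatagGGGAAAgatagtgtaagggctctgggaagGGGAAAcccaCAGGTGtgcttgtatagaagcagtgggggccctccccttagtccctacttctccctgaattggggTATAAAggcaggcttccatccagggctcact
Try4: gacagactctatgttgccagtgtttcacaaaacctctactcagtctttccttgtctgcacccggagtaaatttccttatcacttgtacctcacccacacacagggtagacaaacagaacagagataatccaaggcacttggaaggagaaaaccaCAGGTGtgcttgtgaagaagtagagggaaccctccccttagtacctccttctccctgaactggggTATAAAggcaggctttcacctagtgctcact
Prss3: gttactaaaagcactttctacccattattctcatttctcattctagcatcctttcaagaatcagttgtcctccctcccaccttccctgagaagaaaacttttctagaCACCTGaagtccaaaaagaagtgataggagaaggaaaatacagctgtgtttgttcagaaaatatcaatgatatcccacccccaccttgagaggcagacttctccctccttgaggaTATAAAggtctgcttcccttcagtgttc
Prss2: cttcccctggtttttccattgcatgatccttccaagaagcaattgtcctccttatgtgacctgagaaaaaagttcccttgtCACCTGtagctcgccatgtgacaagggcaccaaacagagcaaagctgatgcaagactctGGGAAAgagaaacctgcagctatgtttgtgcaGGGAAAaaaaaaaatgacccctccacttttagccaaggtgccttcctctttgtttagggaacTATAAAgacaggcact
CACCTG and TATAAA were present in all 4 windows, and in 1.21% of the 32851 promoter windows of the same length in the table. By itself CACCTG was in 17.2% of those windows, TATAAA in 7.59% and TTTCCC in 21.9%. TTTCCC was found in Prss1 and Prss2, whereas the Try4 and Prss3 windows did not hold these letters. In Prss1 the 2 elements stood 4 bases apart, as GGGAAACCCACAGGTG, with its outermost base 106 bases before the start. The spaced form, CANNTG followed after any 4 bases by TTTCCC on either strand, was spelled out after this window had been read, and it was in 0.0791% of all windows, 26 in number, among them that of the neighbouring gene Gm5771. An E-box beside a TTTCCC box is the known layout of sites bound by the acinar complex of Ptf1a and Rbpjl, and a match of letters does not show binding. The TATAAA element began 31 bases before the start in Prss1 and Try4, 28 bases before it in Prss3 and 16 bases before it in Prss2.

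The copies are so alike that reads can be hard to place. Along the longest coding transcripts, Try4 and Try5 were 97.1% identical, Prss1 was 94.3% identical to Gm5771, and Prss3 was 92.7% identical to Gm10334. Of all stretches of 100 bases in the Prss3 transcript, 45.0% also occurred, letter for letter, in another gene, most often Gm10334. The share was 30.2% for Try4, 25.6% for Try5, 21.8% for Prss1 and 11.6% for Try10. For Prss2 and Spink1 it was 0%, so at this length counts of these 2 genes were the least open to misplaced reads. At 50 bases Spink1 was still at 0%, whereas Prss2 shared 7.83% of its stretches, most often with Try10. Neither the read length nor the treatment of reads that match several genes is known from the sources used. Values of the trypsinogens, Prss2 among them if reads were short, are uncertain to that extent.

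**Figure D1:**
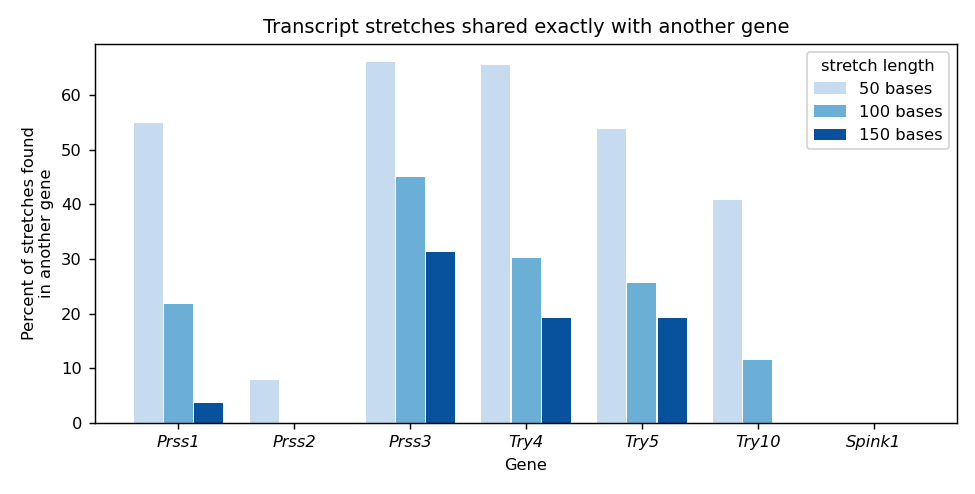
Percent of the stretches of 50, 100 or 150 bases in each member's longest coding transcript that occur exactly in a transcript of another gene (GENCODE M21). Prss3 shared 45.0% of its 100-base stretches, and Prss2 and Spink1 shared 0%.

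The libraries held 14883918 to 17767373 counts. The targeted gene 2610035D17Rik had 2.01, 3.38 and 2.27 CPM (counts divided by the TMM-scaled library total in units of 1e6) in cKO replicates 1 to 3, against 9.08, 8.76, 7.93 and 8.83 CPM in WT replicates 1 to 4, and its groups did not overlap (log2 fold change −1.76, SE 0.215, edgeR adjusted p = 0.0902, DESeq2 adjusted p = 1.25e-09, both Benjamini-Hochberg). Of the marker genes, 7 of 7 for acinar, 5 of 5 for duct, 7 of 7 for endocrine and 5 of 5 for mesenchymal cells had counts. All matched markers of stomach and intestinal epithelium had counts as well, so the presence of counts could not check the pancreatic labels. By level, summed stomach markers had 0.178 to 0.753 CPM and summed intestinal markers 18.9 to 34.1 CPM in any library. Vil1 supplied most of the intestinal sum, with means of 23.4 CPM in cKO and 23.0 CPM in WT. Group means of the other intestinal markers were at most 1.92 CPM (Lgals4 in WT). cKO replicate 1 and WT replicate 4 stood apart from the other 5 libraries in the 13 liver markers, of which 0 had no counts. The markers summed to 2102 CPM in cKO replicate 1 and 478 to 498 CPM in the other cKO libraries. In WT they summed to 1392 CPM in replicate 4 and 388 to 523 CPM in the others. Single liver markers differed: Ttr ranged only over 238 to 358 CPM in all libraries. Alb had 689 CPM in cKO replicate 1 and 354 CPM in WT replicate 4, against 8.59 to 31.0 CPM in the other 5 libraries. The same 2 libraries led in the sum of the 7 acinar markers, with 39520.5 CPM in cKO replicate 1 and 46854 CPM in WT replicate 4. The other libraries ranged from 22158 to 32845 CPM. Ctrb1 supplied most of this sum, with 31562 CPM in cKO replicate 1 and 35480 CPM in WT replicate 4. Cpa1, Cela1 and Ptf1a also had their 2 highest values in these libraries, whereas Pnlip, Rbpjl and Bhlha15 did not. Summed erythroid markers (4 genes) were highest there too, at 2381 CPM in cKO replicate 1 and 1934 CPM in WT replicate 4. The other cKO libraries had 1148 to 1628 CPM and the other WT libraries 861 to 1587 CPM. Summed endocrine markers reached 2042 CPM in cKO replicate 1 and 1939 CPM in WT replicate 4, against 1396 to 1760 CPM in the other 5 libraries. Among them Ins1 and Ins2 had their 2 highest values there, whereas Gcg, Sst, Chga, Neurog3 and Neurod1 did not. Mesothelial markers (3 genes) had 139 CPM in cKO replicate 1 and 125 CPM in WT replicate 4, against 75.8 to 116 CPM in the other 5 libraries. The part of these markers in the results on trypsinogens and Spink1 was not tested. The deposited column heading of WT replicate 4 carries a 7 where the other 6 headings carry a 6, and no label says what this number stands for. With 1 library under that heading, a heading of 7 and WT replicate 4 cannot be told apart.

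All 7 members followed the same order of libraries at its ends. Each was highest in WT replicate 4, next in cKO replicate 1 and then in cKO replicate 2, and each was lowest in WT replicate 2. Between any 2 members, Pearson's r of log2 CPM over the 7 libraries was 0.928 to 0.993. Counts of members that pass a limit or share a direction are therefore not counts of independent results. In bulk RNA, a larger share of acinar cells and more of a transcript in each acinar cell cannot be told apart.

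Prss1 was the most counted trypsinogen in every library. It had 907, 524 and 507 CPM in cKO replicates 1 to 3, against 474, 370, 385 and 1096 CPM in WT replicates 1 to 4. The groups overlapped, since WT replicate 4 lay above every cKO library while the other 3 WT libraries lay below them all. The fitted log2 fold change of cKO over WT was 0.15 (SE 0.460, 95% interval −0.96 to 1.27), a fold of 1.11 with limits of 0.514 and 2.41.

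Try10, the next in abundance, had 552, 383 and 279 CPM in cKO, against 338, 267, 280 and 640 CPM in WT. It varied least among the trypsinogens, with a standard deviation of 0.50 on the log2 CPM scale over the 7 libraries. The groups overlapped, and the fit placed cKO over WT at 0.09 on the log2 scale (SE 0.378), within 95% limits of −0.82 and 0.99.

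Try5, the near-twin of Try4 in sequence, had 602, 339 and 253 CPM in cKO, against 262, 175, 230 and 642 CPM in WT. Among the 7 members it gave the highest log2 fold change, 0.28, with a 95% interval whose lower limit was −1.03 and an SE of 0.539, and its groups overlapped. Try4 itself was counted far less, with 77.7, 30.5 and 21.9 CPM in cKO, against 29.1, 20.0, 21.9 and 98.9 CPM in WT. Its groups overlapped from end to end, and it was the most variable member, with a standard deviation of 0.93 over the 7 libraries. Try4 gave a log2 fold change of 0.03 with the widest interval of the 7, −1.86 to 1.93 (SE 0.766).

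Prss2, the copy whose 100-base stretches are all its own, had 403, 267 and 160 CPM in cKO, against 214, 158, 189 and 524 CPM in WT. In cKO replicate 3 it was as low as in WT replicate 2, the lowest WT library. On the log2 scale cKO over WT was 0.03 in the fit (SE 0.525, 95% interval −1.25 to 1.31). Prss3 had 388, 206 and 174 CPM in cKO, against 198, 126, 145 and 552 CPM in WT, again with overlapping groups. For Prss3 the fit gave 0.0030 on the log2 scale, with 95% limits of −1.53 and 1.53 (SE 0.623).

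Spink1, the inhibitor, had 200, 171 and 137 CPM in cKO, against 147, 106, 114 and 235 CPM in WT. The groups overlapped, and its standard deviation of 0.42 over the 7 libraries was the lowest of the 7 members. Its level in cKO over WT was 0.17 on the log2 scale (SE 0.291, 95% limits −0.51 and 0.86), or 1.13-fold with limits of 0.70 and 1.82. The median standard deviation of the 10702 tested features with at least 10 CPM was 0.14, so each member varied more between embryos than most genes at that level.

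**Figure D2:**
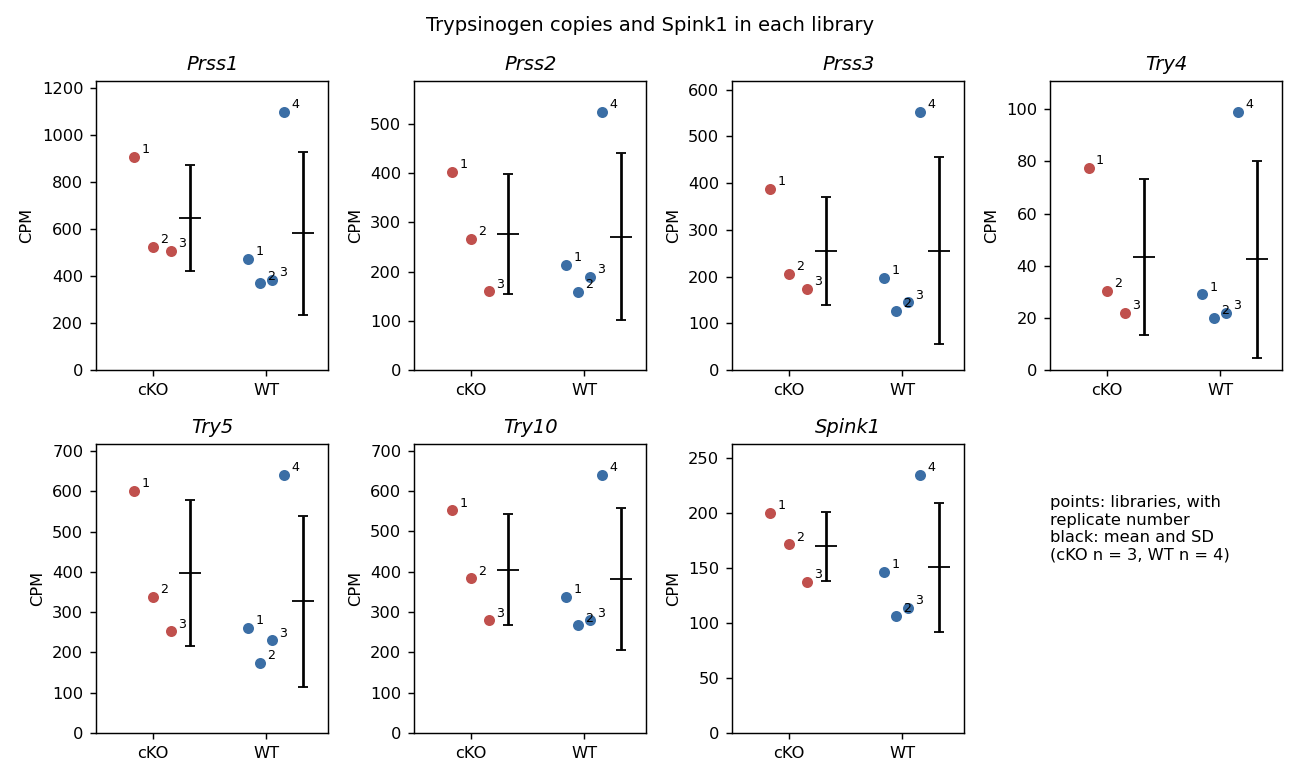
Expression of each member in CPM in every library (points, labelled by replicate), with cKO left of WT and the group mean and SD in black (n = 3 and 4). In all 7 panels the highest point is WT replicate 4 and the next is cKO replicate 1.

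Of the 7 members, 0 passed an adjusted p of 0.05 in the quasi-likelihood test of edgeR, with p-values adjusted over the 16910 tested features by Benjamini-Hochberg (adjusted p = 0.9999 for each), where 0.00591% of all features passed. All 7 members had enough counts to be tested. At an unadjusted p under 0.05 edgeR also listed 0 of the 7, with 1.38% of all features, and the lowest unadjusted p was 0.571, for Spink1. Without WT replicate 4 the unadjusted edgeR p was under 0.05 for 3 of the 7, Prss1 (0.0313), Try5 (0.0492) and Spink1 (0.0251), with 2.45% of all features under it, and their adjusted p was 0.999. Without cKO replicate 1 it was under 0.05 for 0 of the 7, with 2.09% of all features. DESeq2 called 0 members (0.0771% of features) and limma-voom 0 (0.00591%). The exact 2-sided permutation test of log2 CPM over the 35 divisions of the libraries gave p = 0.514 for Try5 and 0.543 for Spink1, with the other members between 0.571 and 0.829, where 0.0286 is the smallest p it can give. In 0 of the 7 were the groups separate, against 2.72% of all tested features.

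The fitted value was above 0 for 7 of 7 members, where it was above 0 for 46.0% of all features. The median was 0.09 for the members and −0.01 for all. Since the members rose and fell together over the libraries, 7 of 7 is not 7 independent results. The directions of the trypsinogens changed with single libraries. Without cKO replicate 1 the log2 fold changes of the 6 trypsinogens lay between −0.68 (Try4) and −0.14 (Try5), and without WT replicate 4 between 0.45 (Try10) and 0.86 (Try4). Spink1 stayed above 0 in both fits, at 0.05 and 0.46. With the liver markers as a covariate the trypsinogens lay between −0.29 and 0.07 and Spink1 at 0.07. With both libraries highest in liver genes left out, the 7 members lay above 0, from 0.15 for Try4 to 0.41 for Try5, with Spink1 at 0.34 and Prss1 at 0.33 (SE 0.117). In that fit Prss1 had an unadjusted edgeR p of 0.0226, alone among the 7, with 2.39% of all features under 0.05, and an adjusted p of 1.00 (Benjamini-Hochberg). With all 7 libraries, the 95% interval of each trypsinogen reached past 1.5-fold in both directions.

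**Figure D3:**
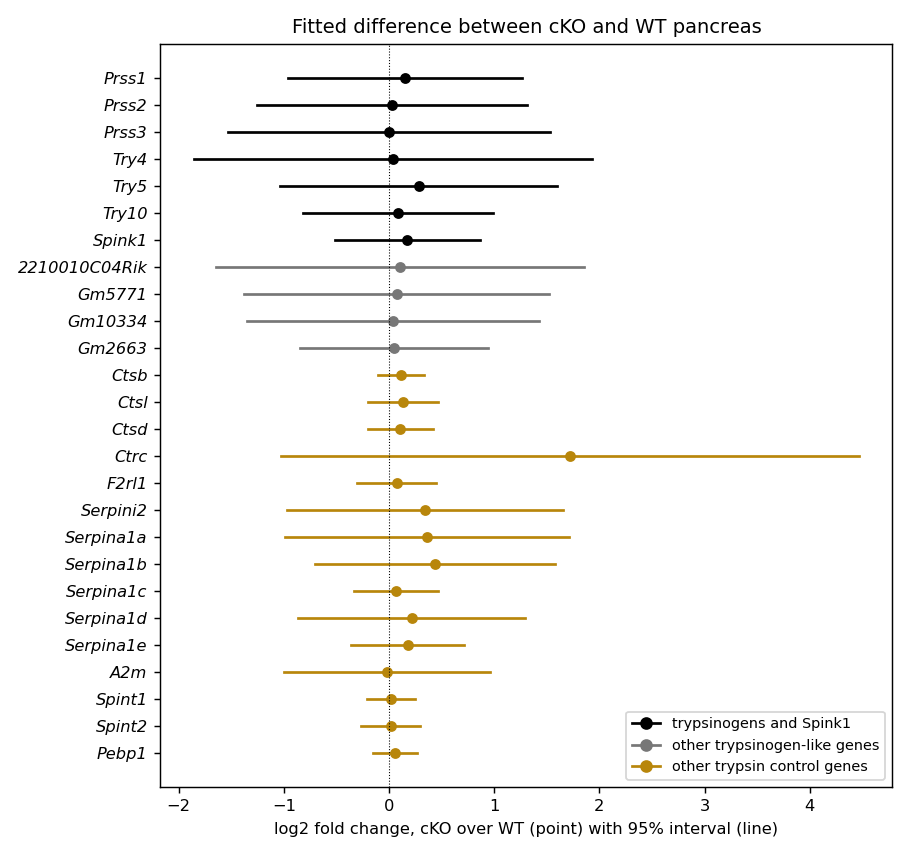
Fitted log2 fold change of cKO over WT (points) with 95% intervals (lines) for the members in black, the other tested trypsinogen-like genes in grey and the other tested trypsin control genes in ochre. The intervals of all 7 members include 0, from the narrowest for Spink1 to the widest for Try4.

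Summed over the 6 copies, trypsinogens took 0.284%, 0.174% and 0.142% of the counts in cKO replicates 1 to 3, against 0.158%, 0.111%, 0.128% and 0.338% in WT replicates 1 to 4. The sum averaged 2025 ± 804 CPM in cKO (SD, n = 3) and 1859 ± 1142 CPM in WT (SD, n = 4), a ratio of 1.09. With all 7 libraries the difference of the means was smaller than the SD of either group. The ratio was 0.846 without cKO replicate 1, 1.56 without WT replicate 4 and 1.21 without both.

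Levels of different genes were compared per kilobase of exon. Prss1 led with 803 ± 281 CPM per kb in cKO (SD, n = 3) and 722 ± 430 CPM per kb in WT (SD, n = 4), and it was above Try10 in 7 of 7 libraries, by 1.46 to 1.94 times. Try10 was above Try5 in 6 of 7 libraries, Try5 above Prss2 in 6 of 7 and Prss2 above Prss3 in 5 of 7, so these neighbours in the order did not separate. For Try5 the exon length was 902 bases, whereas its longest coding transcript has 801 bases and would place it higher. Its counts against Try10 and Prss2 thus depend on the length used. Prss3 was above Spink1 in 7 of 7 libraries, and Spink1 above Try4 in 7 of 7, by 2.61 to 6.88 times. Single trypsinogen copies other than Try4 thus had more counted transcript per length than the inhibitor in all libraries. This order is open to the placing of reads. Of 100-base stretches, Prss3 shared 45.0% and Try4 30.2% with another gene, against 0% for Spink1, and the treatment of such reads is not known.

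Prss1 held the largest share of trypsinogen counts in all 7 libraries, and the shares of the other copies shifted between libraries. Prss1 made up 31.0%, 30.0% and 36.3% of trypsinogen counts in cKO replicates 1 to 3, against 31.3%, 33.1%, 30.8% and 30.9% in WT replicates 1 to 4. The 36.3% of cKO replicate 3 (exact 95% interval 35.7% to 36.9%, counting error only) was the highest share, and the same library had the lowest share of Prss2, 11.5%, against 14.1% to 15.1% in WT. Try10 took 18.8% in cKO replicate 1 and 18.0% in WT replicate 4, below the 20.0% to 23.9% of the other 5 libraries. Try4 took 2.65% in cKO replicate 1 and 2.78% in WT replicate 4, above the 1.57% to 1.92% of the others. Between the groups, the share of Prss1 differed by 0.91 percentage points (32.4% ± 3.42 in cKO, SD, n = 3, and 31.5% ± 1.09 in WT, SD, n = 4), less than the spread within cKO. The difference was −1.04 points without cKO replicate 3 and 2.14 points without cKO replicate 2.

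**Figure D4:**
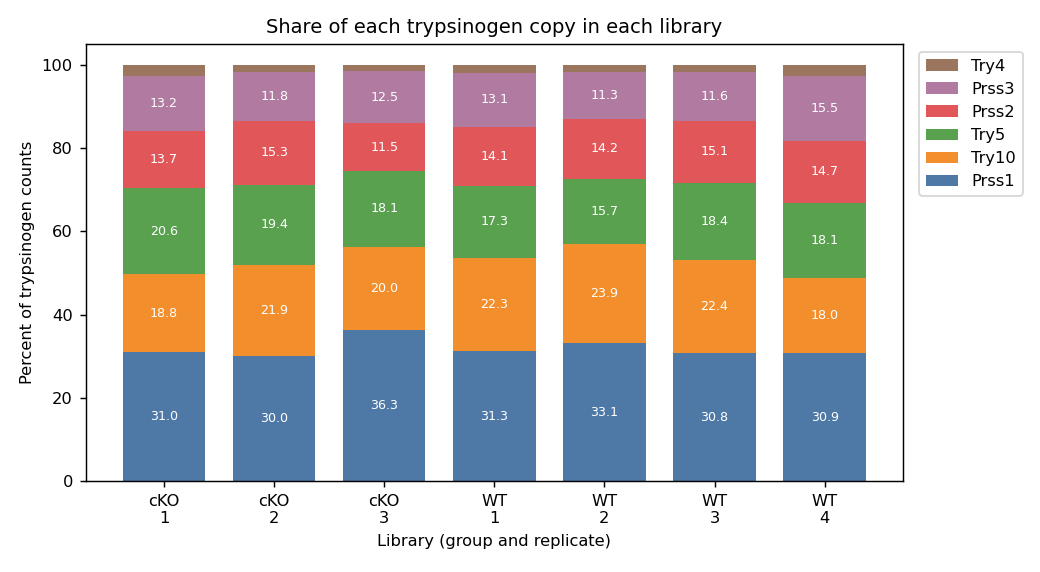
Percent of the summed counts of the 6 trypsinogens that came from each copy, per library, with the cKO libraries left of the WT libraries. Prss1 is the lowest block, at 30.0% to 36.3%, and Try10 is smallest in cKO replicate 1 and WT replicate 4.

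The copies stood out by different amounts in the 2 libraries that led. In cKO replicate 1, set against the mean of the other cKO libraries, Try4 was the most raised, by 2.97 times, and Spink1 the least, by 1.29 times. WT replicate 4 stood above the mean of the other WT libraries by 4.18 times for Try4, 3.53 times for Prss3, 2.89 times for Try5, 2.80 times for Prss2, 2.68 times for Prss1 and 2.17 times for Try10. Its factor for Spink1 was 1.92, again the smallest of the 7.

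Protease and inhibitor transcripts therefore stood in a different ratio in those 2 libraries. Per kilobase, summed trypsinogens exceeded Spink1 by 12.8 times in cKO replicate 1, against 8.88 times in both cKO replicate 2 and cKO replicate 3. In WT the ratio was 13.2 in replicate 4, against 9.01, 9.15 and 9.58 in replicates 1 to 3. The other 5 libraries, of either genotype, thus lay within 8.88 to 9.58. Between the groups the ratio averaged 10.2 ± 2.25 in cKO (SD, n = 3) and 10.2 ± 2.00 in WT (SD, n = 4), and the mean log2 ratio of summed CPM to Spink1 CPM differed by −0.01, from −0.19 without cKO replicate 1 to 0.12 without WT replicate 4. No test was made of this ratio, and the part that the liver markers, high in the same 2 libraries, play in it was not tested.

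**Figure D5:**
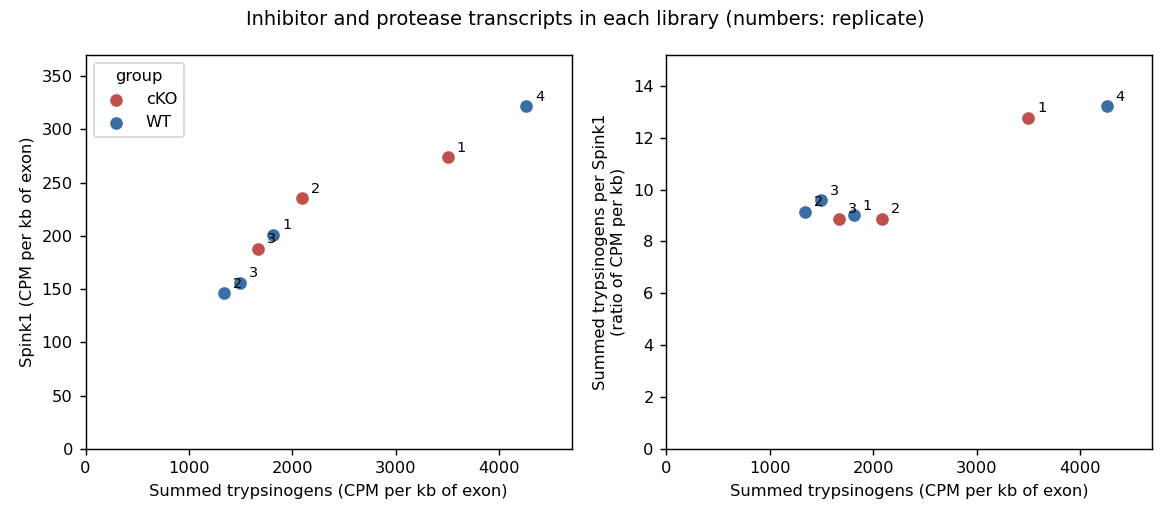
Spink1 (left) and the ratio of summed trypsinogens to Spink1 (right) against the summed trypsinogens, all in CPM per kb of exon, for each library (numbers are replicates). The ratio lies between 8.88 and 9.58 in 5 libraries and at 12.8 and 13.2 in cKO replicate 1 and WT replicate 4.

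The other trypsinogen-like genes of the locus were also highest in WT replicate 4. Of 6 such genes 4 were tested, and 0 passed with edgeR (0.00591% of all features), DESeq2 (0.0771%) or limma-voom (0.00591%). Gm5771 had 141 ± 48.3 CPM in cKO (SD, n = 3) and 134 ± 105 CPM in WT (SD, n = 4), and Gm10334 had 142 ± 53.7 CPM in cKO and 138 ± 102 CPM in WT. 2210010C04Rik, which shared 0% of its 100-base stretches with other genes, had 85.4, 39.6 and 29.1 CPM in cKO, against 34.7, 17.4, 34.3 and 105 CPM in WT. Gm2663 stayed between 1.62 and 4.03 CPM, and 1810009J06Rik and the pseudogene Gm5409 had 49 and 11 counts over all libraries.

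Among genes that switch trypsin on, hold it back or sense it, 15 of 18 listed were tested. In either direction 0 passed with edgeR (0.00591% of all features), 0 with DESeq2 (0.0771%) and 0 with limma-voom (0.00591%). At an unadjusted edgeR p under 0.05, 1.38% of all features were listed and 0 of these 15 genes. Their median log2 fold change was 0.11, beside −0.01 for all tested features, and 1 of the 15, Ctrc, had separate groups, where 2.72% of all tested features did. Serpina1a, an antiproteinase gene that also stands among the liver markers, had 9.46, 2.43 and 3.37 CPM in cKO, against 2.54, 2.68, 2.95 and 7.77 CPM in WT, highest in the same 2 libraries as those markers. Tmprss15, the gene of enteropeptidase, the intestinal activator, was barely counted, with 0.054 to 0.355 CPM in any library and 21 counts in all, too few to be tested. Ctsb, cathepsin B, a lysosomal protease that can activate trypsinogen, had 396 ± 33.8 CPM in cKO (SD, n = 3) and 366 ± 31.6 CPM in WT (SD, n = 4). Ctsl, cathepsin L, which degrades trypsinogen, had 358 ± 54.3 CPM in cKO and 327 ± 55.0 CPM in WT.

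Ctrc, chymotrypsin C, another protease that degrades trypsinogen, had 118, 116 and 64.1 CPM in cKO, against 2.65, 53.1, 60.1 and 3.96 CPM in WT. WT replicate 4, the library highest in every trypsinogen, was thus among the 2 libraries with little Ctrc, whereas cKO replicate 1 was the highest. For Ctrc the fit gave 1.72 on the log2 scale (SE 1.11, 95% limits −1.02 and 4.47, edgeR adjusted p = 0.9999, Benjamini-Hochberg). F2rl1, a receptor cleaved by trypsin, was at 6.84 ± 0.231 CPM in cKO and 6.51 ± 0.917 CPM in WT.

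Other inhibitors were expressed as well. Serpini2, a serpin of acinar cells, had 338, 361 and 179 CPM in cKO, against 293, 242, 70.5 and 319 CPM in WT, and its groups overlapped. Spint2 is a Kunitz-type inhibitor of epithelial proteases. It had 156 ± 19.9 CPM per kb in cKO (SD, n = 3) and 154 ± 19.4 CPM per kb in WT (SD, n = 4). Spink1 had 232 ± 43.1 CPM per kb in cKO and 206 ± 80.7 CPM per kb in WT. Before division by exon length (4556 bases for Spint2, 729 for Spink1) the order was the reverse. Spint2 then had 710 CPM in cKO and 703 CPM in WT, and Spink1 had 169 and 150 CPM. The order of Spint2 and Spink1 thus rested on the length used, that of all annotated exons together. Of 11 other Spink genes listed, 4 were matched and 2 tested, and 7 were not analysed here. Spink4 stood at 0.829 CPM in cKO and 0.834 CPM in WT, and Spink2 at 0.523 CPM in cKO and 0.585 CPM in WT, so Spink1 was the main Spink transcript among those matched.

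Trypsinogens were a minor part of the acinar protease transcripts at this stage. Ctrb1, chymotrypsinogen B, had 10.3, 13.9 and 11.4 times the CPM per kb of all 6 trypsinogens together in cKO replicates 1 to 3, against 9.92, 15.3, 13.4 and 9.50 times in WT replicates 1 to 4. Of 8 other serine proteases of the acinar cell 0 passed, with Ctrc and Cela1 at the smallest p (Cela1 log2 fold change 0.27, 95% interval −0.30 to 0.85), and the median was 0.30. Of 18 other zymogen and granule genes 0 passed, with Amy2b and Reg1 at the smallest p (log2 fold changes −0.84 and 0.33), and their median was 0.22. Of 9 acinar transcription factors tested 0 passed, with a median of 0.03. Ptf1a, the acinar regulator, had 76.6, 64.4 and 51.8 CPM in cKO, against 47.8, 51.6, 54.4 and 69.5 CPM in WT, and Mecom had a log2 fold change of −0.13. For these 3 lists edgeR called 0 genes (0.00591% of all features), DESeq2 0 (0.0771%) and limma-voom 0 (0.00591%). At an unadjusted p under 0.05 edgeR listed 0, with 1.38% of all features. With shares this low, 0 in lists this short is no result about their genes.

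The genes most alike in pattern were sought among 10643 other tested genes with a mean of at least 10 CPM, by Pearson's r of log2 CPM over the 7 libraries. For the summed trypsinogens they were Cyp4v3 (r = 0.991), Zg16, a zymogen granule protein (0.990), Serinc3 (0.989), Cpb1, procarboxypeptidase B (0.988), and Smox, a polyamine oxidase (0.986). For Spink1 they were Ebp, a sterol isomerase (0.993), Zg16 (0.986), Parp16 (0.982), Serinc3 (0.981) and Tarbp2 (0.980). Zg16 ranged over 2.56 to 32.6 CPM and Cpb1 over 294 to 1675 CPM, whereas Serinc3 ranged only over 199 to 252 CPM. The values share libraries and scaling, WT replicate 4 and cKO replicate 1 lie far from the rest, and the genes are the top of a long list, so these coefficients are a description.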

How the data were processed

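The authors deposited 1 table of raw, whole-number read counts, not normalized, from polyadenylated RNA of 3 cKO and 4 WT pancreases at E15.5. The submitters' processing notes list HISAT2, StringTie, featureCounts and the build mm39 with no roles or versions, and how reads matching several genes were handled is not given in those notes. The labels' protocols name no step that marks the strand. Headings were matched to the labels by genotype and replicate, with 0 columns unused. Totals were 14883918 to 17767373 counts, and no pair of libraries agreed within sampling noise (ratio of chi-square to its degrees of freedom at least 10.5).

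Symbols, exon lengths and gene order came from GENCODE M21 on GRCm38, another build than mm39, and no gene coordinates were taken from it. Counts were filtered with filterByExpr (16910 features kept), scaled with TMM factors (0.952 to 1.04) and tested with edgeR 4.0.16 in R 4.3.3 (quasi-likelihood test, robust, group as the only term, Benjamini-Hochberg over all features, threshold 0.05). The procedure was tested on simulated data. DESeq2 1.42.0 and limma-voom (limma 3.58.1), other scalings and filters, covariates and left-out libraries were alternatives. CPM used TMM-scaled totals, log2 CPM a prior count of 2. Sums, ratios and shares over members have no test. Named genes were the members, 2610035D17Rik, genes of the trypsin control and locus lists, the 2 genes of each other list with the smallest p, and the 5 genes most alike in pattern. Single marker genes were named after their values were seen. Ctrb1 was singled out after its values were seen. The members and lists were chosen with earlier results of these data known.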

Additional observations from a re-analysis of the deposited data

Results flagged for a closer look

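WT replicate 4 lay far from the other 3 WT libraries in 7 of 16 quantities examined by Dixon's criterion, which compares the gap to the nearest library with the range of the group (critical value 0.829 for 4 libraries). Chance gives about 1 in 20 groups, the quantities share their libraries and are not independent, and the 3 cKO libraries were not examined this way. Gene levels and the trypsinogen sum entered the criterion as CPM, and it was not run on their log2 CPM. The flags of Prss1, Prss2, Prss3, Try4 and the summed trypsinogens therefore hold for untransformed CPM only. Prss1 had 1096 CPM there, against 370 to 474 CPM in the other WT libraries, and Prss2 had 524 CPM against 158 to 214 CPM. Prss3 had 552 CPM against 126 to 198 CPM, and Try4 had 98.9 CPM against 20.0 to 29.1 CPM. The summed trypsinogens came to 3553 CPM, against 1117 to 1515 CPM. The log2 ratio of summed trypsinogens to Spink1 was 3.92, against 3.37 to 3.46, and Try4 made up 2.78% of trypsinogen counts, against 1.75% to 1.92%. Spink1, Try5 and Try10 were also highest in WT replicate 4 without passing the critical value.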

How the results depend on the processing

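In every alternative run, 0 of the 7 members passed the threshold. Over all features edgeR called 1, and it called 0 with DESeq2 size factors, library totals, a minimum mean of 1 CPM or estimation that was not robust, 4 without a filter and 2 with liver markers as a covariate. DESeq2 called 13, and leaving out single libraries gave 0 to 3. The cause of these differences was not tested. Of 126 alternative fold changes of members, 29 had the opposite sign. With liver markers as a covariate the log2 fold change was −0.011 for Prss1, −0.16 for Prss2, −0.17 for Prss3, −0.29 for Try4 and −0.081 for Try10. With the other acinar zymogens as a covariate it was −0.050 for Prss2 and −0.035 for Try4. Prss3, at 0.0030, was −0.00038 with DESeq2 size factors, −0.00086 without a filter and −0.0011 with DESeq2. Leaving out single libraries gave −0.16 to 0.65 for Prss1, −0.33 to 0.55 for Prss2, −0.42 to 0.70 for Prss3, −0.68 to 0.86 for Try4, −0.14 to 0.83 for Try5 and −0.19 to 0.45 for Try10. Spink1 stayed above 0 in its 18 alternatives. The summed trypsinogens, their ratio to Spink1 and the share of Prss1 had 14 alternatives each. Of these, the longest transcript length was added after the data were seen. In all 14 each quantity moved by less than its pooled SD within the groups. For the sum this SD was divided by the mean over the 7 libraries, giving 0.528, a wide limit. The direction of these quantities was not stable. Leaving out single libraries gave a cKO over WT ratio of 0.846 to 1.56 for the sum and a log2 ratio difference of −0.19 to 0.12. The Prss1 share difference was −1.04 to 2.14 points in those runs, and −0.11 points for medians. Whether the replicate numbers pair the samples is not stated by the labels and was not settled. Same-numbered libraries correlated at 0.282, 0.418 and 0.059 in their deviations from the group means. For cKO replicates 1 and 2 the WT library of the same number correlated best, with WT replicate 4 close behind for cKO replicate 1 (0.23). By contrast, cKO replicate 3 correlated best with WT replicate 2 (0.298). With the replicate block 13 features and 0 members were called, and the log2 fold changes were 0.61 for Prss1, 0.48 for Prss2, 0.65 for Prss3, 0.69 for Try4, 0.77 for Try5, 0.41 for Try10 and 0.47 for Spink1. Of these, 5 of 7 had an unadjusted edgeR p under 0.05 (Prss1 5.3e-04, Prss3 0.0012, Spink1 0.0013, Try10 0.017, Try5 0.021), with 3.87% of all features under it. In that fit WT replicate 4 has no cKO library of its number, so it adds nothing to the difference. No alternative changed the depth, so its part in the width of the intervals was not tested.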
